A study of Mus musculus with 4 samples.

Results

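The Wnt pathway genes described here are the ligands, receptors, secreted inhibitors, cytoplasmic relay proteins and TCF/LEF transcription factors of the pathway, chosen by gene symbol. Symbols of 57 protein-coding genes matched, and the 52 with at least 10 counts summed over the 4 libraries are the members, of 53465 gene identifiers in all. Of the members, 15 are Wnt ligands, 10 Frizzled receptors, 2 LRP co-receptors, 7 R-spondins or their LGR receptors, 8 secreted inhibitors, 6 cytoplasmic relay proteins and 4 TCF/LEF factors. RNA was sequenced with an mRNA library kit from the lateral habenula of C57BL/6 mice, a nucleus beside the third ventricle through which forebrain input reaches dopamine and serotonin neurons. One group, with 2 libraries, came from mice housed in groups and the other, also with 2 libraries, from mice kept in social isolation, which the series title calls acute. The sources used here do not give how long isolation lasted, the age or sex of the mice, or how many mice made up a library. A p-value therefore reflects the spread among these libraries alone, which may be technical.

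Wnt proteins are lipid-modified secreted ligands that bind a Frizzled receptor together with LRP5 or LRP6. Without ligand, a destruction complex built on axin marks β-catenin for degradation, and with ligand, Dishevelled proteins and axin are drawn to the receptor and β-catenin accumulates and joins TCF/LEF factors on target genes. R-spondins bind LGR receptors and raise the amount of Frizzled at the cell surface, while SFRP proteins and WIF1 bind Wnts and DKK1 binds the LRP co-receptors. In the mature brain the pathway is known for roles in synapse formation, blood vessel barrier upkeep and neuron identity. Tcf7l2 is a known identity factor of thalamic and habenular neurons.

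Libraries held 20897605 to 26428152 counts, and a level of 3 counts was 0.113 to 0.146 CPM (counts scaled by the TMM-adjusted library total). The marker lists were chosen with earlier results of these data known, so their directions are no independent evidence. Of 9 medial habenula markers, all 9 were higher in both isolated libraries than in both group-housed ones, beside 17.4% of all tested genes. Their summed levels were 1267 and 1156 CPM in group-housed replicates 1 and 2 and 1612 and 1626 CPM in isolated replicates 1 and 2. All 12 thalamus markers had lower means in the isolated group, where 51.2% of all tested genes had higher ones. The thalamus sums were 1160, 1308, 1046 and 810 CPM in the same order. All 8 tested ependymal markers had higher means in the isolated group, with sums of 70.5, 67.5, 73.1 and 156 CPM. Choroid plexus markers summed to 37.8, 150, 59.2 and 70.7 CPM. All 7 astrocyte, 9 oligodendrocyte, 5 oligodendrocyte precursor and 8 microglia markers had lower means in the isolated group, with median log2 fold changes of -0.12, -0.21, -0.11 and -0.14, and 4 of 5 hippocampus and cortex markers had higher ones. The 6 lateral habenula markers summed to 1356, 1265, 1388 and 1264 CPM, and none of them was at 0 in any library. Of these, 3 (Gpr151, Htr5b and Sstr2) were higher in both isolated libraries than in both group-housed ones. The other 3 (Pcdh10, Htr2c and Gap43) had lower means in the isolated group. In no marker list was a gene at 0 in all 4 libraries. In bulk tissue, fewer cells of a type and less RNA per cell cannot be told apart.

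**Figure D1:**
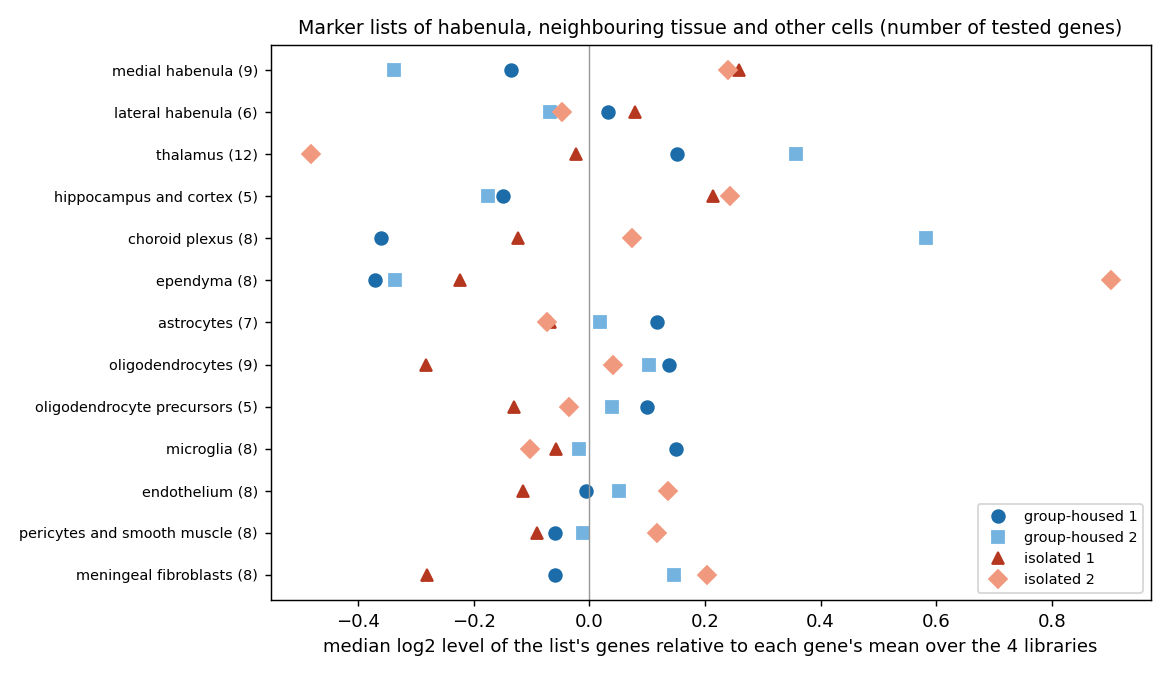
Median log2 level of 13 marker lists in each library after subtraction of the gene's own 4-library mean (x axis), with 1 row per list and the number of tested genes in brackets. The medial habenula points of the 2 isolated libraries lie to the right of both group-housed ones, and the ependymal point of isolated replicate 2 stands alone at 0.90.

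No Wnt pathway gene passed the test between isolated and group-housed mice. Of 52 members, 47 had enough counts to be tested, and 0 had a Benjamini-Hochberg adjusted p below 0.05 in the quasi-likelihood test of edgeR. The mean was higher in the isolated libraries for 22 (46.8%) and lower for 25, beside 51.2% of all tested genes higher. Over all genes 2 of 17528 passed, or 0.0114%. These were Slc5a7 and Chrnb3 (edgeR adjusted p = 0.0227 for each), and both are on the medial habenula marker list. At an unadjusted p below 0.05 in the same test, 5 members were higher (Wnt2b, Tcf7, Fzd1, Fzd7 and Axin2) and 1 was lower (Wnt3). That is 12.8% of the members beside 5.09% of all tested genes. By direction it is 10.6% higher beside 2.83%, and 2.13% lower beside 2.26%. The median log2 fold change of the tested members was -0.013, and that of all tested genes was 0.0033. A log2 fold change of at least 0.25 in either direction was seen for 9 members (19.1%) and for 16.4% of all tested genes. For 12 members (25.5%) the lower isolated value exceeded the higher group-housed one, beside 17.4% of all tested genes, and for 5 (10.6%) the isolated values were both the lower ones, beside 16.3%. The counts depended on single libraries. The share of all tested genes at that threshold is not given for the omissions. The member counts there are therefore listed only with the processing alternatives, and no comparison is drawn from them. Omission of isolated replicate 1 raised the number of all genes called. Omission of either group-housed library lowered it. Each omission leaves 1 group with a single library, which is then assumed to vary like the pair of the other group. Tcf7, Wnt2b and Fzd1 were at an unadjusted p below 0.05 in all 4 omissions, while Fzd7, Axin2 and Wnt3 were not once group-housed replicate 2 was left out.

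**Figure D2:**
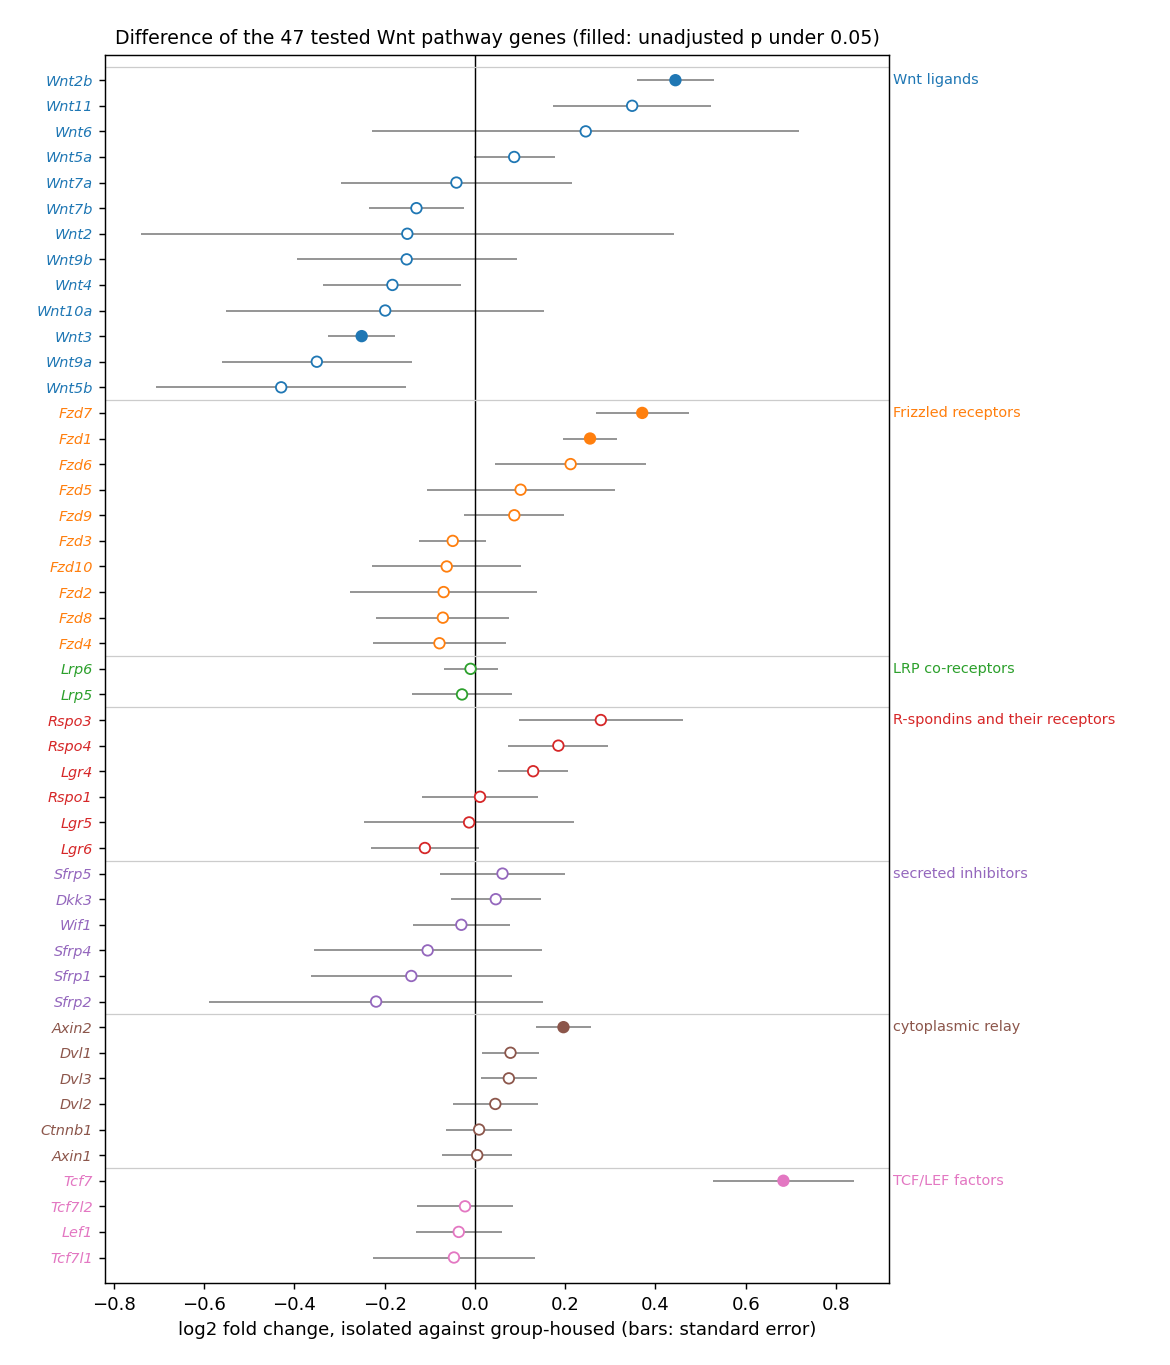
Log2 fold change of each tested member, isolated against group-housed, with its standard error as a bar, grouped by role. Filled points mark the 6 members at an unadjusted p below 0.05, with Tcf7 farthest to the right at 0.68. None passed after adjustment over all genes.

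Tcf7 (ENSMUSG00000000782, chromosome 11 from 52252371 to 52283014 on the minus strand of GRCm38) had the largest log2 fold change in size among the 47 tested members. It encodes TCF1, a DNA-binding partner of β-catenin. It measured 7.51 and 7.003 CPM in group-housed replicates 1 and 2 and 10.2 and 13.0 CPM in isolated replicates 1 and 2, from 154 to 345 counts per library. Both isolated libraries were above both group-housed ones, and they differed more from each other than the group-housed pair did. The means were 7.25 ± 0.356 and 11.6 ± 1.97 CPM (SD, n = 2), a fold of 1.61 and a log2 fold change of 0.68 (SE 0.16), with an edgeR adjusted p = 0.420. Omission of single libraries gave log2 fold changes of 0.50 to 0.85. The edgeR adjusted p was 0.0252 without isolated replicate 1, where the 1 isolated library left was the higher one, and 0.519 to 0.9995 in the other 3 omissions.

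Wnt2b (ENSMUSG00000027840, chromosome 3 from 104945272 to 104961921, minus strand) had the smallest p of the members. It encodes a ligand that signals through β-catenin. It measured 21.8 and 20.5 CPM in the group-housed and 29.7 and 27.8 CPM in the isolated libraries. The groups did not overlap, and the gap between them was wider than the spread within either. The log2 fold change was 0.44 (SE 0.086), with an unadjusted p = 0.000704 and an adjusted p = 0.281 in the quasi-likelihood test. Its share of the summed ligand RPKM (CPM per kilobase of merged exons) was 16.4 and 16.5% in the isolated libraries, and 11.4 and 11.9% under group housing. In edgeR's exact test both Wnt2b (adjusted p = 0.0157) and Tcf7 (0.0477) passed as higher, with 0.382% of all tested genes passing as higher there and 0.0856% as lower. DESeq2, which called 0.299% of genes higher and 0.0711% lower, and limma-voom, with 0.0114% higher, called no member.

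Axin2, a scaffold of the destruction complex and a widely used target gene of β-catenin signalling, measured 70.2 and 67.2 CPM in the group-housed and 79.0 and 78.4 CPM in the isolated libraries. The isolated pair was higher and nearly equal, and some Axin2 exon bases are shared with the annotated gene Gm11670. Its log2 fold change was 0.20 (SE 0.061, 95% interval 0.056 to 0.34), with an edgeR adjusted p = 0.780. Fzd1, a Frizzled receptor, measured 79.8 and 78.5 CPM against 94.95 and 94.0 CPM, a log2 fold change of 0.26 (SE 0.059) with an edgeR adjusted p = 0.443. The replicates of each group lay close together and the groups did not overlap. Fzd7, a receptor of the same subfamily, measured 29.0 and 23.6 CPM against 34.2 and 33.6 CPM (log2 fold change 0.37, SE 0.10, edgeR adjusted p = 0.676). Its group-housed libraries differed more from each other than its isolated ones, and the log2 fold change was 0.22 when group-housed replicate 2 was left out and was 0.52 when group-housed replicate 1 was. Wnt3, the most abundant ligand, was the member at an unadjusted p below 0.05 with the lower mean. It measured 36.3 and 37.9 CPM in the group-housed and 31.3 and 31.1 CPM in the isolated libraries, a log2 fold change of -0.25 (SE 0.074) with an edgeR adjusted p = 0.758. The 9 medial habenula markers lay higher and 10 of the 12 thalamus markers lower in both isolated libraries than in both group-housed ones. Of all tested genes 17.4% lay higher and 16.3% lower in that way. Both lists were chosen with earlier results of these data known. The part of these markers in the differences of the 6 genes was not tested.

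**Figure D3:**
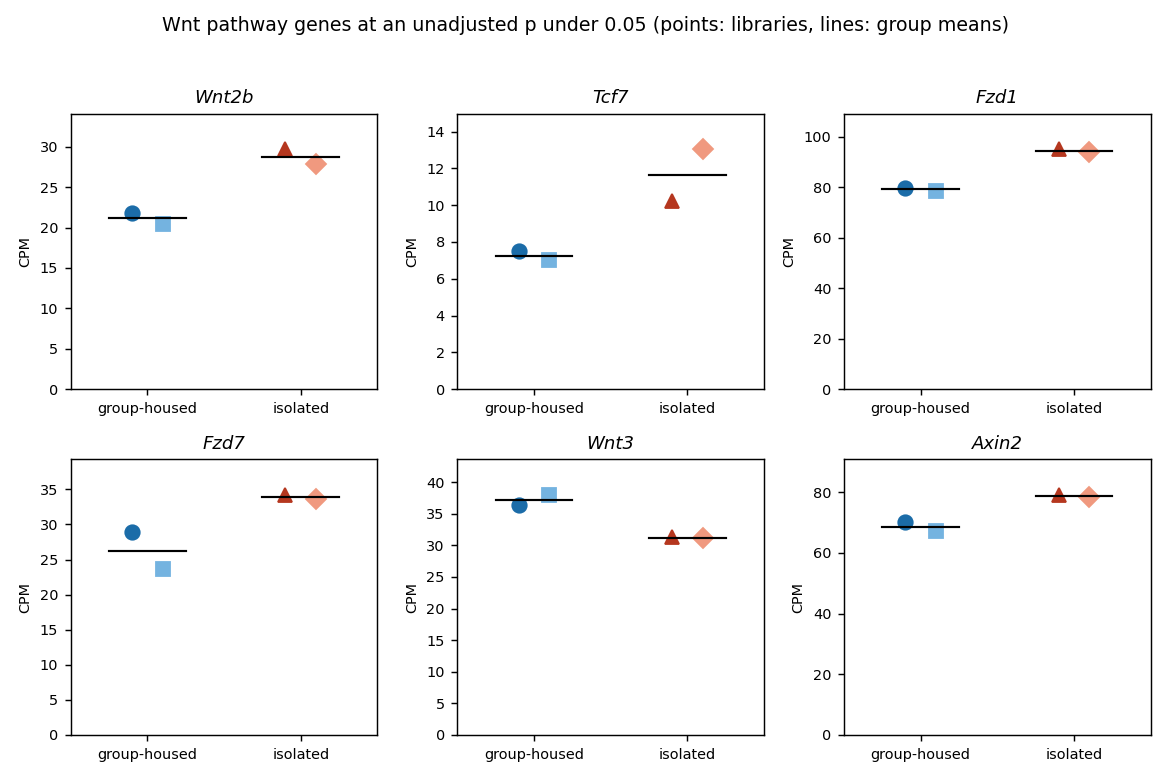
CPM of the 6 members at an unadjusted p below 0.05, each library as a point and each group mean as a line, on axes that start at 0. For Wnt2b, Tcf7, Fzd1, Fzd7 and Axin2 both isolated points lie above both group-housed ones, and for Wnt3 they lie below.

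Promoter windows, the 250 bases before a RefSeq transcription start (GRCm38.p6), were found for 36 members, some with several starts. They were searched on both strands for CTTTGAA and CTTTGTT, forms of the TCF/LEF motif that can overlap when they lie on opposite strands. A match was present in 3 of 45 member windows (6.67%) and in 9.17% of all 32851 windows. Windows of identical sequence were counted once among the members but not in the whole set, so the percentages are not strictly alike. The member matches were in Fzd7, in an internal start of Tcf7l2 and in Dkk1, which was near the limit of detection. Of the 6 members at an unadjusted p below 0.05, Fzd7 had a match and Wnt2b, Tcf7, Fzd1, Wnt3 and Axin2 had none. Windows of Fzd1, Fzd7 and Axin2 are shown with the matching one of Tcf7l2, the main TCF factor here, and these overlap no annotated exon (GENCODE M21). Those of Wnt2b, Wnt3 and the inner Tcf7 start overlap exons, and that of the outer Tcf7 start appears to hold coding sequence, so they are not printed. The outer window of Tcf7l2 had no match. Capitals mark the motif. No capitals means only that these letters are not in the window.
Fzd1, chr5:4758217-4758466, minus strand: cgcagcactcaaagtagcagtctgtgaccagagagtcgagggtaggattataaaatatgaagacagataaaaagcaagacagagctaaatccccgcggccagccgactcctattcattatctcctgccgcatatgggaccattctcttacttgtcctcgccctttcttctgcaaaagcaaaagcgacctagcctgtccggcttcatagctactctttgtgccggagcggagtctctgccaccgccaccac
Axin2, chr11:108920099-108920348, plus strand: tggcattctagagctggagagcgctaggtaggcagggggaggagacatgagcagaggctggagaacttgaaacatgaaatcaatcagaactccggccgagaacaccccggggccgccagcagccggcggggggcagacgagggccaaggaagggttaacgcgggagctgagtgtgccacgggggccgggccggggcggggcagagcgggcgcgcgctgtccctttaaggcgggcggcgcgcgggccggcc
Fzd7, chr1:59481897-59482146, plus strand: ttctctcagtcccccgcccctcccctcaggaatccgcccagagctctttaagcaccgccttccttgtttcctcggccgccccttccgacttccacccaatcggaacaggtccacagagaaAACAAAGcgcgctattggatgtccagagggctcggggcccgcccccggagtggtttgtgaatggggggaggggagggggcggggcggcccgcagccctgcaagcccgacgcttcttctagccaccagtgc
Tcf7l2, chr19:55895071-55895320, plus strand: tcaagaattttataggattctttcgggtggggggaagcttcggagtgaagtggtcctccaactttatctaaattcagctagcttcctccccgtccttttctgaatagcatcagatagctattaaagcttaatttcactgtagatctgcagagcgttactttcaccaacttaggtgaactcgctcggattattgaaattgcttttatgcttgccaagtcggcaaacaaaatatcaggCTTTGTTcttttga
The Fzd7 match is on the minus strand, 130 to 124 bases before the start, and the Tcf7l2 match is on the plus strand, 14 to 8 bases before it.

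Wnt ligand transcripts were spread over many genes at low to moderate levels. Of the 15 ligand members, 13 were tested, 4 with a higher and 9 with a lower mean in the isolated libraries, and 0 passed. Their summed level was 45.6 and 40.9 RPKM in the group-housed and 43.0 and 40.2 RPKM in the isolated libraries, so the groups overlapped. Wnt3 took 26.2% of the summed mean RPKM of the ligands, Wnt7a 20.5%, Wnt2b 14.0%, Wnt4 10.4% and Wnt7b 10.2%. Wnt7a, which acts on brain endothelium and on synapses, measured 37.5 and 18.7 CPM in the group-housed and 29.1 and 25.1 CPM in the isolated libraries. The 2 group-housed libraries were thus its highest and its lowest. Its log2 fold change was -0.041 (SE 0.26) with all libraries, but 0.53 when group-housed replicate 1 was left out and -0.48 when group-housed replicate 2 was. Choroid plexus marker sums also stood farthest apart in those 2 libraries, at 37.8 and 150 CPM, in the opposite order. Most of that gap was Ttr, at 3.41 and 102 CPM, and the other 8 markers summed to 34.4 and 47.9 CPM. Their part in the Wnt7a values was not tested.

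Wnt4 measured 17.2 and 22.1 CPM in the group-housed and 19.5 and 15.2 CPM in the isolated libraries, and the groups overlapped. Wnt7b, the closest relative of Wnt7a, measured 23.2 and 21.2 CPM against 18.7 and 21.8 CPM, again with overlap. Wnt5a, a ligand of the β-catenin-independent branches, differed little among the libraries at 19.1, 20.6, 21.02 and 21.2 CPM. Wnt9a was lower in isolated replicate 2 (4.31 CPM) than in the other 3 libraries (6.59 to 6.96 CPM), with a log2 fold change of -0.35 (SE 0.21, edgeR adjusted p = 0.979) and no overlap of the groups. It became -0.69 when isolated replicate 1 was left out and -0.075 when isolated replicate 2 was. Wnt11, another β-catenin-independent ligand, measured 4.73 and 4.40 CPM against 5.29 and 6.31 CPM, a log2 fold change of 0.35 (SE 0.18, edgeR adjusted p = 0.979) without overlap of the groups. Wnt5b measured 2.14 and 1.71 CPM against 1.60 and 1.25 CPM, from 33 to 44 counts per library, and its 95% interval for the log2 fold change ran from -1.06 to 0.20. Wnt9b, Wnt10a, Wnt2 and Wnt6 had 54 to 250 counts over all libraries and overlapped between the groups. Wnt2 varied most, from 0.227 CPM in isolated replicate 2 to 0.876 CPM in isolated replicate 1.

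Wnt16 (20 counts in all) and Wnt10b (12) were members but had too few counts for the test. Wnt8b (7 counts) and Wnt3a (1) fell under the minimum of 10, with the lowest member, Dkk1, at 11. Wnt1 and Wnt8a had 0 counts in every library, which allows up to 3 counts, or 0.113 to 0.146 CPM, per library. Classical developmental ligands such as Wnt1 and Wnt3a were therefore at or under the detection limit at this depth.

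Fzd1 was the leading Frizzled receptor, with 39.7% of the summed mean RPKM of the family. It was followed by Fzd3 (14.1%), Fzd9 (12.9%), Fzd7 (12.7%) and Fzd10 (8.03%). The summed level of the 10 receptors was 50.4 and 48.5 RPKM in the group-housed and 54.7 and 55.1 RPKM in the isolated libraries, without overlap. Of the 10, 5 had a higher and 5 a lower mean, 0 passed, and Fzd1 and Fzd7 were those at an unadjusted p below 0.05. Fzd3, a receptor of axon guidance and planar cell polarity, measured 95.1 and 96.5 CPM in the group-housed and 98.6 and 86.7 CPM in the isolated libraries. Isolated replicate 2 was its lowest library, and the groups overlapped. Fzd9 measured 16.1 and 14.0 CPM against 15.9 and 15.9 CPM, and Fzd10 15.3 and 12.6 CPM against 11.3 and 15.3 CPM. Fzd4, the receptor for norrin on brain endothelium, measured 12.3 and 15.1 CPM against 11.6 and 14.4 CPM, with group-housed replicate 2 and isolated replicate 2 high. Fzd6 had a log2 fold change of 0.21 (SE 0.17) and Fzd5 of 0.10, Fzd2 of -0.069 and Fzd8 of -0.071, all with an edgeR adjusted p = 0.9998.

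The LRP co-receptors were nearly constant. Lrp6 measured 79.9, 82.4, 80.9 and 80.4 CPM in the order group-housed 1 and 2 and isolated 1 and 2, and its highest library was 1.03 times its lowest. Its log2 fold change was -0.0095 with a 95% interval of -0.15 to 0.13. Lrp5 measured 14.6, 13.4, 14.1 and 13.4 CPM, with a log2 fold change of -0.028 (95% interval -0.28 to 0.22). Per kilobase Lrp6 held 80.6% of the pair's mean RPKM.

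R-spondins and LGR receptors differed in pattern from gene to gene. Of 7 members, 6 were tested, 4 with a higher and 2 with a lower mean, and 0 passed. Rspo3, an R-spondin known for its role in vascular development, measured 18.4, 18.2 and 17.3 CPM in group-housed replicates 1 and 2 and isolated replicate 1 and 27.2 CPM in isolated replicate 2. The difference thus lay in 1 library. Its log2 fold change was 0.28 (SE 0.18, edgeR adjusted p = 0.995), and without isolated replicate 1 it was 0.57 (edgeR adjusted p = 0.0232), a value that rests on the 1 high library and on the spread of the group-housed pair. Rspo3 was singled out after its values were seen. Ependymal markers summed to 156 CPM in isolated replicate 2 and to 67.5 to 73.1 CPM in the other 3 libraries, and their part in the Rspo3 value was not tested. Rspo4 measured 13.0 and 14.5 CPM in the group-housed and 15.2 and 16.1 CPM in the isolated libraries (log2 fold change 0.19, SE 0.11, edgeR adjusted p = 0.979), and the groups did not overlap. Rspo1 measured 10.4 to 11.9 CPM, and Rspo2, with 25 counts in all, was not tested.

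Lgr4, the most abundant LGR receptor, measured 42.6 and 41.3 CPM in the group-housed and 48.2 and 43.6 CPM in the isolated libraries (log2 fold change 0.13, SE 0.077). The isolated libraries were both higher, isolated replicate 2 only slightly so. Lgr6 measured 11.7 and 11.4 CPM against 10.4 and 11.03 CPM (log2 fold change -0.11, SE 0.12). Lgr5, a stem cell marker and target of the pathway in gut, measured 7.26 and 7.55 CPM against 9.26 and 5.44 CPM. The 2 isolated libraries were its highest and lowest, and the log2 fold change of -0.013 turned to 0.32 without isolated replicate 2 and to -0.45 without isolated replicate 1.

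Among secreted inhibitors, Wif1 dominated with 53.6% of the summed mean RPKM. Wif1 binds Wnt proteins directly. It measured 30.5 and 37.1 CPM in the group-housed and 31.2 and 35.2 CPM in the isolated libraries, so replicate 2 was the higher in each group. Its log2 fold change was -0.030 (95% interval -0.28 to 0.22). Dkk3, a divergent Dickkopf protein that is not an LRP antagonist of the DKK1 kind, measured 18.7, 19.7, 21.1 and 18.6 CPM in the order group-housed 1 and 2 and isolated 1 and 2. Sfrp5 was nearly flat at 7.46 to 7.86 CPM, with both isolated libraries slightly higher. Sfrp1 measured 2.92 and 2.45 CPM against 2.48 and 2.38 CPM. Sfrp2 ranged from 1.02 CPM in isolated replicate 2 to 2.32 CPM in isolated replicate 1, and Sfrp4 from 1.81 to 2.44 CPM. Of the 6 tested inhibitors 2 had a higher and 4 a lower mean, and 0 passed. Dkk2 (27 counts) and Dkk1 (11) were too low to test, and Dkk4 (4) was under the count minimum.

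Ctnnb1, which encodes β-catenin, an adhesion protein as well as the transducer of the pathway, was the most abundant member at 129 RPKM, above 98.8% of all tested genes. It measured 683 and 656 CPM in the group-housed and 684 and 665 CPM in the isolated libraries. Its log2 fold change was 0.0094 with a 95% interval of -0.16 to 0.18. The 6 relay genes all had a higher mean in the isolated libraries, by log2 fold changes from 0.0052 to 0.20, and 0 passed. Dvl1, which encodes the most abundant Dishevelled at the RNA level, measured 111 and 119 CPM in the group-housed and 122 and 121 CPM in the isolated libraries (log2 fold change 0.079, SE 0.063). Dvl3 measured 63.8 and 62.8 CPM against 67.5 and 65.8 CPM (log2 fold change 0.075, SE 0.062). For both genes the isolated libraries were higher without overlap, by a small margin. Dvl2 measured 21.1 and 24.2 CPM against 23.6 and 23.2 CPM. Axin1, the constitutive scaffold of the destruction complex, measured 35.3 and 37.6 CPM against 35.6 and 37.7 CPM (log2 fold change 0.0052, 95% interval -0.17 to 0.18), and replicate 2 was the higher in each group.

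Tcf7l2 supplied 77.6% of the mean RPKM of the TCF/LEF factors and stood at 27.4 RPKM, second among all members. It measured 234 and 249 CPM in the group-housed and 266 and 210 CPM in the isolated libraries. The isolated libraries were its highest and lowest, and its log2 fold change was -0.022 (SE 0.11, 95% interval -0.26 to 0.22), which became -0.20 when isolated replicate 1 was left out and 0.14 when isolated replicate 2 was. The thalamus markers were also lowest in isolated replicate 2, at 810 CPM in sum. In isolated replicate 1, where Tcf7l2 was highest, their sum was the next lowest, at 1046 CPM beside 1160 and 1308 CPM under group housing. The part of the thalamus markers in the Tcf7l2 values was not tested. Lef1, an endothelial and thalamic member of the family, measured 18.8, 19.9, 19.6 and 18.2 CPM in the order group-housed 1 and 2 and isolated 1 and 2 (log2 fold change -0.036, SE 0.095). Tcf7l1, mainly a repressor, measured 8.43 and 8.33 CPM against 6.74 and 9.48 CPM, with the isolated libraries on either side of the group-housed ones. The share of Tcf7 in the family's RPKM was 10.2 and 14.9% in the isolated libraries, and 8.44 and 7.52% under group housing.

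**Figure D4:**
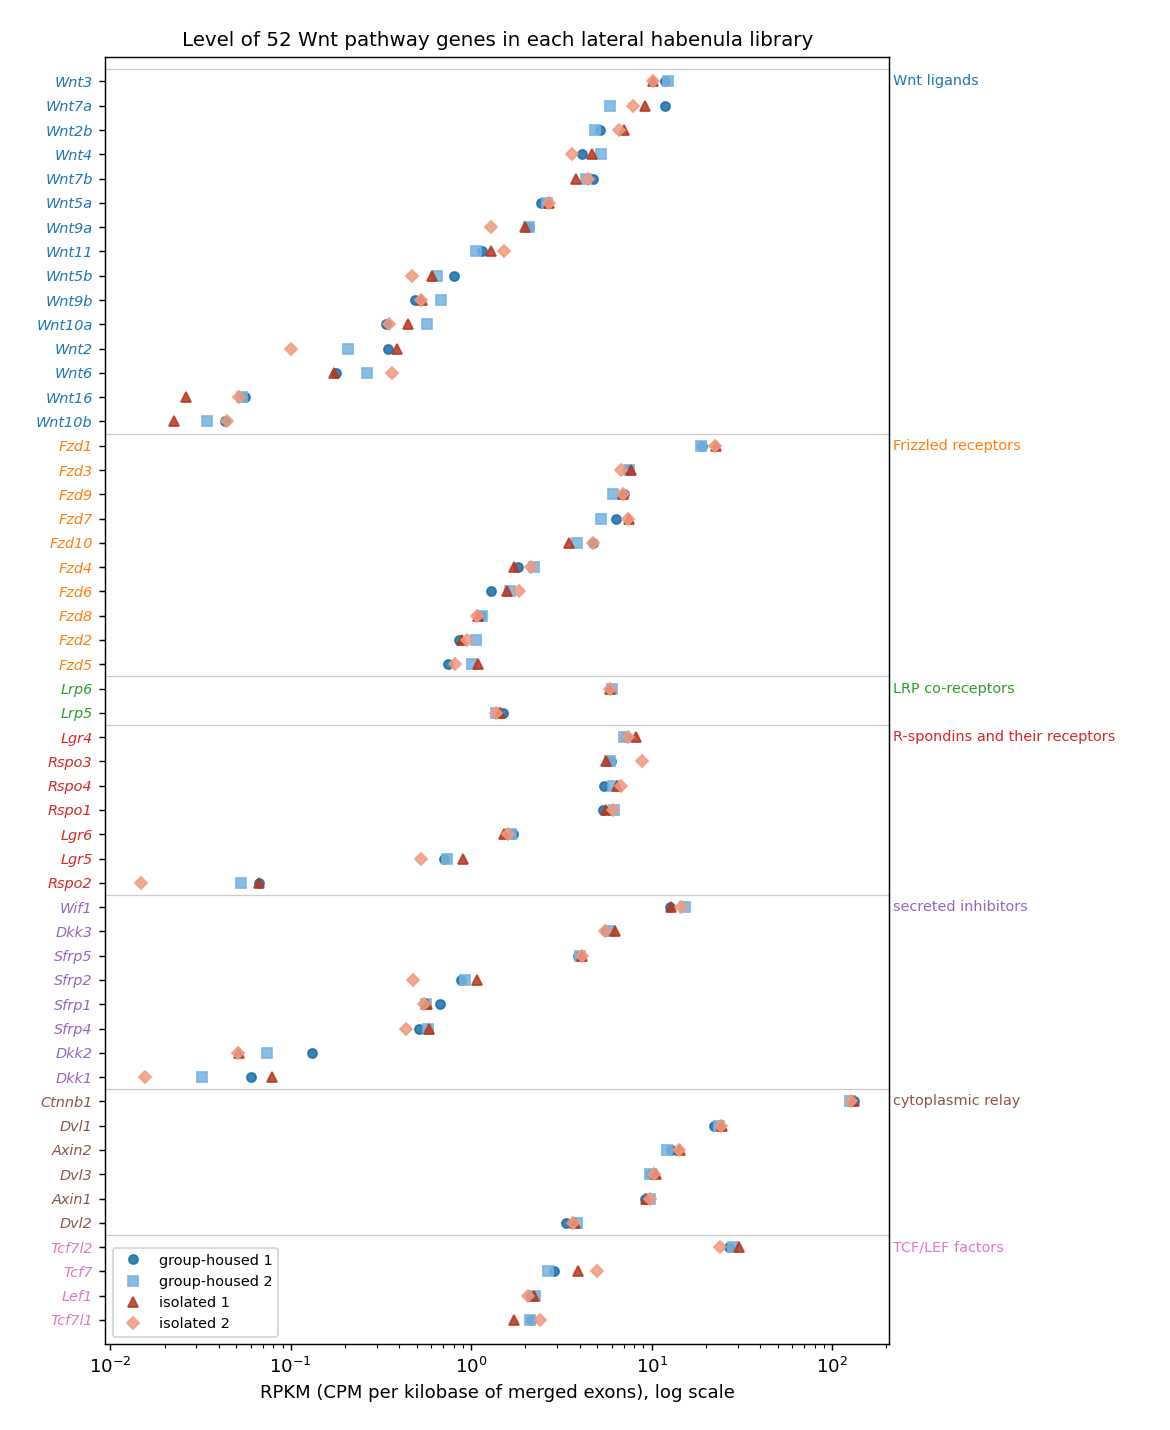
RPKM of the 52 members on a log scale, each library as a point, grouped by role and ordered by mean level within a role. Ctnnb1 stands highest at a mean of 129 RPKM, and the points of the 4 libraries lie close together for most members above 1 RPKM.

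No gene passed among the other genes of the pathway either. Of 81 such genes found, 79 were tested, 40 with a higher and 39 with a lower mean, and 0 passed. At an unadjusted p below 0.05 in the quasi-likelihood test, 3 of the 79 were higher and 2 lower. Of all tested genes 2.83% were higher and 2.26% lower at that threshold. Kremen1, a DKK1 receptor, measured 35.0 ± 2.40 CPM in the group-housed and 42.8 ± 2.18 CPM in the isolated libraries (SD, n = 2), a log2 fold change of 0.29 with an edgeR adjusted p = 0.705. Ror2, a receptor for Wnt5a, measured 8.63 ± 0.282 and 11.03 ± 1.49 CPM (log2 fold change 0.35), and Ctnnbip1, which blocks the contact of β-catenin with TCF factors, 126 ± 3.59 and 139 ± 0.380 CPM (0.15). Bcl9, a β-catenin co-activator, gave a log2 fold change of 0.13. The planar cell polarity genes Daam1, at 132 ± 0.786 and 119 ± 2.93 CPM, and Prickle1, at 61.4 ± 1.95 and 55.1 ± 1.80 CPM, had log2 fold changes of -0.14 and -0.16. Nkd1, a feedback inhibitor that binds Dishevelled, gave -0.12 and Draxin, a guidance protein that can antagonise Wnt signalling, -0.39. Each of these 8 genes had an edgeR adjusted p of 0.705 or more.

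By role, 10 of the 17 destruction complex and kinase genes had a higher mean and 7 a lower one. The complex's kinase gene Gsk3a led that group at 61.1 RPKM, with a log2 fold change of -0.027. Among nuclear partners 9 of 14 were higher, led by Aes at 94.2 RPKM (-0.069). Among planar cell polarity genes 5 of 12 were higher, led by Celsr2 at 19.7 RPKM (0.034). Porcn, the acyltransferase that lipidates Wnt proteins, led the secretion genes (16.7 RPKM, -0.051, 1 of 4 higher), and Ryk the alternative receptors (8.28 RPKM, -0.083, 6 of 9 higher). Sostdc1 led the other secreted factors (9.15 RPKM, 0.24, 2 of 5 higher), Dact3 the cytoplasmic modulators (35.0 RPKM, -0.017, 3 of 9 higher) and Znrf3, a ligase that removes Frizzled from the surface, receptor turnover (3.18 RPKM, -0.021, 0 of 2 higher). Common target genes were led by Id2 (36.0 RPKM, -0.074), with 4 of 7 higher. None of these leading genes passed.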

How the data were processed

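The authors deposited unnormalised counts for every Ensembl gene in all libraries, and 1 file per library with a normalised signal. The deposited signal was each count multiplied by 1 constant of that library (for 100% of genes with a count, within a relative tolerance of 0.0001), and it was not used further. Per the labels' protocols, RNA was extracted with Trizol and libraries made with a stranded mRNA kit. Per the submitters' processing notes, the build was GRCm38 and the tools were CASAVA, HTSeq, edgeR and TopHat2 2.1.1. Neither the annotation release nor the strand setting is given in the sources used here.

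Symbols, coordinates and merged exon lengths came from GENCODE M21 (GRCm38), which held 53360 of the 53465 identifiers. Of the 52 members, 13 share exon bases with another annotated gene, mostly on the opposite strand, among them Ctnnb1, Dvl1, Axin2, Rspo3, Wnt5a, Wnt7b, Wnt11, Lef1 and Tcf7l1, which makes those counts uncertain. Counts were tested with edgeR 4.0.16 in R 4.3.3 (filterByExpr, TMM, 2-sided glmQLFTest, no covariate) over 17528 genes, with Benjamini-Hochberg adjustment at 0.05. Standard errors were derived from F (the size of the log2 fold change over the root of F), and 95% intervals use 8.55 degrees of freedom. The script was tested on simulated data with 17289 genes for the same comparison, where 99% of 100 genes changed by a log2 of 1 were recovered. The changed genes were drawn from those with a mean of at least 5 CPM. The largest log2 fold change of a member was 0.68, and changes of that size or smaller were not simulated.

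The rule for values per library named the 12 members with the highest RPKM, the 8 with the smallest p in each direction and 8 chosen for their role (26 in all). Values per library of Wnt5a, Fzd4, Fzd9, Fzd10, Lrp5, Lrp6, Rspo3, Dkk3 and Dvl2, outside that rule, were added after they were seen. Of the other pathway genes, the 4 with the smallest p in each direction and the most abundant of each role were named. The members, gene lists and marker lists were chosen with earlier results of these data known. Alternatives were RLE factors, 2 other filters, DESeq2 1.42.0, edgeR's exact test, limma-voom (limma 3.58.1), a replicate block and the omission of each library. The limit of 3 counts covers counting error only. Promoter sequences are from RefSeq (GRCm38.p6), and protein sequences were not used here.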

Additional observations from a re-analysis of the deposited data

How the results depend on the processing

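With RLE factors, limma-voom or the replicate block 0 of 47 members were called. With no filter it was 0 of 52, with a mean of at least 5 CPM 0 of 38, and with DESeq2 0 of the 42 members given an adjusted p. The exact test of edgeR called 2 (Wnt2b and Tcf7). Members called on omission of single libraries are not counted here, as the share of all tested genes is not given for them. Over all genes, the 2 calls became 15 with no filter on low counts, 52 with DESeq2, 82 with the exact test and 64 with the replicate block, and 1 to 221 on omission of single libraries. The labels do not say that replicate numbers pair the libraries, and deviations of same-numbered libraries correlated at r = 0.14 over genes. The replicate block called 0 members. When single libraries were left out, members at an unadjusted p below 0.05 numbered 3 to 7 higher and 1 to 6 lower, and the members' median log2 fold change ran from -0.030 to 0.049. For the omissions, the share of all tested genes at that threshold is not given. These member counts therefore cannot show whether members differed from other genes. The alternatives for the counts at an unadjusted p were added after the data were seen. Other pathway genes gave 0 calls under all alternatives run. Of 26 members with alternatives, 10 changed sign under some setting, and the share of all tested genes that did so is not given. In the main test these 10 had log2 fold changes from -0.18 (Wnt4) to 0.0094 (Ctnnb1), most of them near 0. On omission of single libraries the log2 fold change ran from -0.039 to 0.045 for Axin1, -0.028 to 0.039 for Ctnnb1, -0.15 to 0.041 for Fzd3, -0.092 to 0.017 for Lef1, -0.45 to 0.32 for Lgr5, -0.31 to 0.18 for Tcf7l1, -0.20 to 0.14 for Tcf7l2, -0.16 to 0.11 for Wif1, -0.38 to 0.0037 for Wnt4 and -0.48 to 0.53 for Wnt7a. Wnt7a was also positive with limma-voom (0.071) and the replicate block (0.012). The cause of these changes was not tested. Without a change of sign, omissions moved the log2 fold change by over 1.5 times for 9 more members besides Fzd7: Dvl1 (0.032 to 0.12), Lgr4 (0.055 to 0.20), Lgr6 (-0.16 to -0.067), Rspo4 (0.11 to 0.26), Sfrp1 (-0.28 to -0.013), Wnt11 (0.22 to 0.47), Wnt5b (-0.62 to -0.26), Wnt7b (-0.24 to -0.023) and Wnt9a (-0.69 to -0.075). The 5 members with 11 to 27 counts in all were too shallow to test.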
